A study of Mus musculus with 5 samples.

Results

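The macrophage scavenger receptors Marco, Msr1, Cd36, Scarb1, Olr1 and Cd163, the complement receptor Vsig4 and the secreted protein Cd5l were followed across peritoneal cells of mice. They were chosen by name as 8 of the 22815 symbols in the deposited table, and none was chosen by its values. All 8 reached 1 FPKM (fragments scaled to transcript length and library depth) in at least 1 library, so all 8 were among the 11117 genes tested.

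The libraries came from cells washed out of the peritoneal cavity of mice aged 8 weeks and were made by Smart-seq2, a method for polyadenylated RNA from little material. There were 3 groups: Irf8-deficient mice given pristane (libraries labelled Irf8KO, n = 2), wild-type C57BL/6 mice given pristane (WT pristane, n = 2) and wild-type C57BL/6 mice that received phosphate-buffered saline only (WT PBS, n = 1). Pristane is a mineral oil component that causes lasting sterile inflammation of the mouse peritoneum, and Irf8 is a transcription factor of monocyte and dendritic cell development. The sources used here give neither the kind of Irf8 allele nor the time after injection nor the number of mice behind a library, so p-values measure only the spread between these libraries. There was no PBS library of the mutant. With n = 1, WT PBS took its spread in the tests from the 4 pristane libraries.

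Scavenger receptors are surface proteins through which macrophages bind and take in modified lipoproteins, microbes, dying cells and debris without antibody. Class A receptors (Msr1, Marco) carry a collagen-like stalk. Class B receptors (Cd36, Scarb1) cross the membrane at both ends and handle fatty acids, oxidized lipoproteins and cholesterol. Cd163 is built from cysteine-rich scavenger domains, as is Cd5l, which macrophages secrete and which travels in plasma bound to IgM. Resident macrophages of the mouse peritoneum are known for Marco and Vsig4, while Cd36 and Olr1 are also made by macrophages that take up oxidized lipid.

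Estimated depth, read from the steps between the lowest values, ran from 2311000 to 4961000 fragments per library, and 9105 to 9849 genes per library reached 1 FPKM. Irf8 itself had 120.5 and 59.4 FPKM in libraries labelled Irf8KO, 63.3 and 48.7 FPKM in WT pristane and 32.4 FPKM in WT PBS. The label was therefore not borne out by a lower level of Irf8 RNA, although a level per gene cannot tell which exons were read. The libraries also differed in sex: the Y-linked Eif2s3y had 23.2 and 25.6 FPKM in libraries labelled Irf8KO, 12.9 and 0 FPKM in WT pristane and 0 FPKM in WT PBS, and the female transcript Xist reached 8.81 FPKM in WT pristane replicate 2 and 43.5 FPKM in WT PBS. Vsig4 is X-linked. Xist had 0.0148 and 0.0145 FPKM in libraries labelled Irf8KO and 0 FPKM in WT pristane replicate 1. Sex and group therefore cannot be told apart between the libraries labelled Irf8KO and WT PBS. Nor can sex be told apart from other differences between the WT pristane replicates. The part of sex in the differences below was not tested. In bulk RNA, fewer cells of a type and less RNA per cell cannot be told apart.

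The promoters of 4 of the genes are shown because the results below turn on them. Olr1 and Vsig4 passed the test between groups. Cd5l and Cd36 did not overlap between the pristane groups, in opposite directions, but did not pass there. Marco, Vsig4 and Msr1 did not overlap either, and of all tested genes 26.1% were higher and 27.1% lower without overlap. Each promoter runs from 250 bases before to 50 bases after the transcription start, as RefSeq gives it on GRCm38.p6. Olr1 lies at chr6:129507116-129507415 on the minus strand, Vsig4 at chrX:96293389-96293688 on the minus strand, Cd5l at chr3:87357631-87357930 on the plus strand and Cd36 at chr5:17835847-17836146 on the minus strand. Capitals mark matches on either strand to GAGGAA (core of PU.1 and other ETS factors), TGCTGA (core of Maf factors), TGANTCA (AP-1), GAAANNGAA (interferon regulatory factors) or AGGTCA (core of nuclear receptors).
Olr1: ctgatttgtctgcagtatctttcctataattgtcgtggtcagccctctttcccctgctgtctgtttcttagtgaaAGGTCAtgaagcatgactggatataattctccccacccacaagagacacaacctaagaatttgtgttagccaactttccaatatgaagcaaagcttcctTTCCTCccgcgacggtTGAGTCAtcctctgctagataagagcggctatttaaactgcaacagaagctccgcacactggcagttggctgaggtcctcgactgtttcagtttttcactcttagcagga
Vsig4: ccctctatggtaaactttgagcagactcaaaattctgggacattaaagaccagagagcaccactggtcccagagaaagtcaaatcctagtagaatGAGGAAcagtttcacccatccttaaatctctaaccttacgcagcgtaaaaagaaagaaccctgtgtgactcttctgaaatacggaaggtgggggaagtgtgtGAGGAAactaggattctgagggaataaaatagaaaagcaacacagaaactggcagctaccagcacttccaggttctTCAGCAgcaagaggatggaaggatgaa
Cd5l: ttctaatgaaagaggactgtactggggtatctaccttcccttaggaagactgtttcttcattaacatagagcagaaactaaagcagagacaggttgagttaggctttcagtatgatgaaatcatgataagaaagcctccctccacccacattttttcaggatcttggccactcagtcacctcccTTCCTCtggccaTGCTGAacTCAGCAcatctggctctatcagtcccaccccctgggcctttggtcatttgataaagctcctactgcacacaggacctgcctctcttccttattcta
Cd36: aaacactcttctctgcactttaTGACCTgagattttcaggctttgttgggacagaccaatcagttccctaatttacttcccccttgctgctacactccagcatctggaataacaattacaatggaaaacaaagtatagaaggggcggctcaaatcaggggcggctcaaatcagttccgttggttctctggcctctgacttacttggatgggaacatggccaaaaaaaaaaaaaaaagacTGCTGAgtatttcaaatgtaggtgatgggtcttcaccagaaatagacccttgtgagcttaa

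In the Cd5l promoter the Maf core stood on both strands, starting 54 and 46 bases before the transcription start, with a gap of a few bases between the matches. TGCTGA was found in 19.5% of all 32851 promoters of the table. The Olr1 promoter held an AP-1 match starting 60 bases before the start, a sequence found in 7.81% of promoters, and a PU.1 core that occurs in 28.3%. Vsig4 held 2 PU.1 cores, and Cd5l and Marco held 1 each, that of Marco at 146 bases before its start. Cd36 and Vsig4 each held 1 Maf core. Cd36 held 1 nuclear receptor core, as did Olr1, and 16.3% of all promoters held it. None of the 6 members with a promoter in the table (Marco, Cd36, Olr1, Cd163, Vsig4, Cd5l) matched the interferon regulatory factor motif, which 8.56% of promoters held. The Cd163 promoter matched none of the motifs. No matches overlapped in these promoters, and they describe letters and not bound sites.

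**Figure D1:**
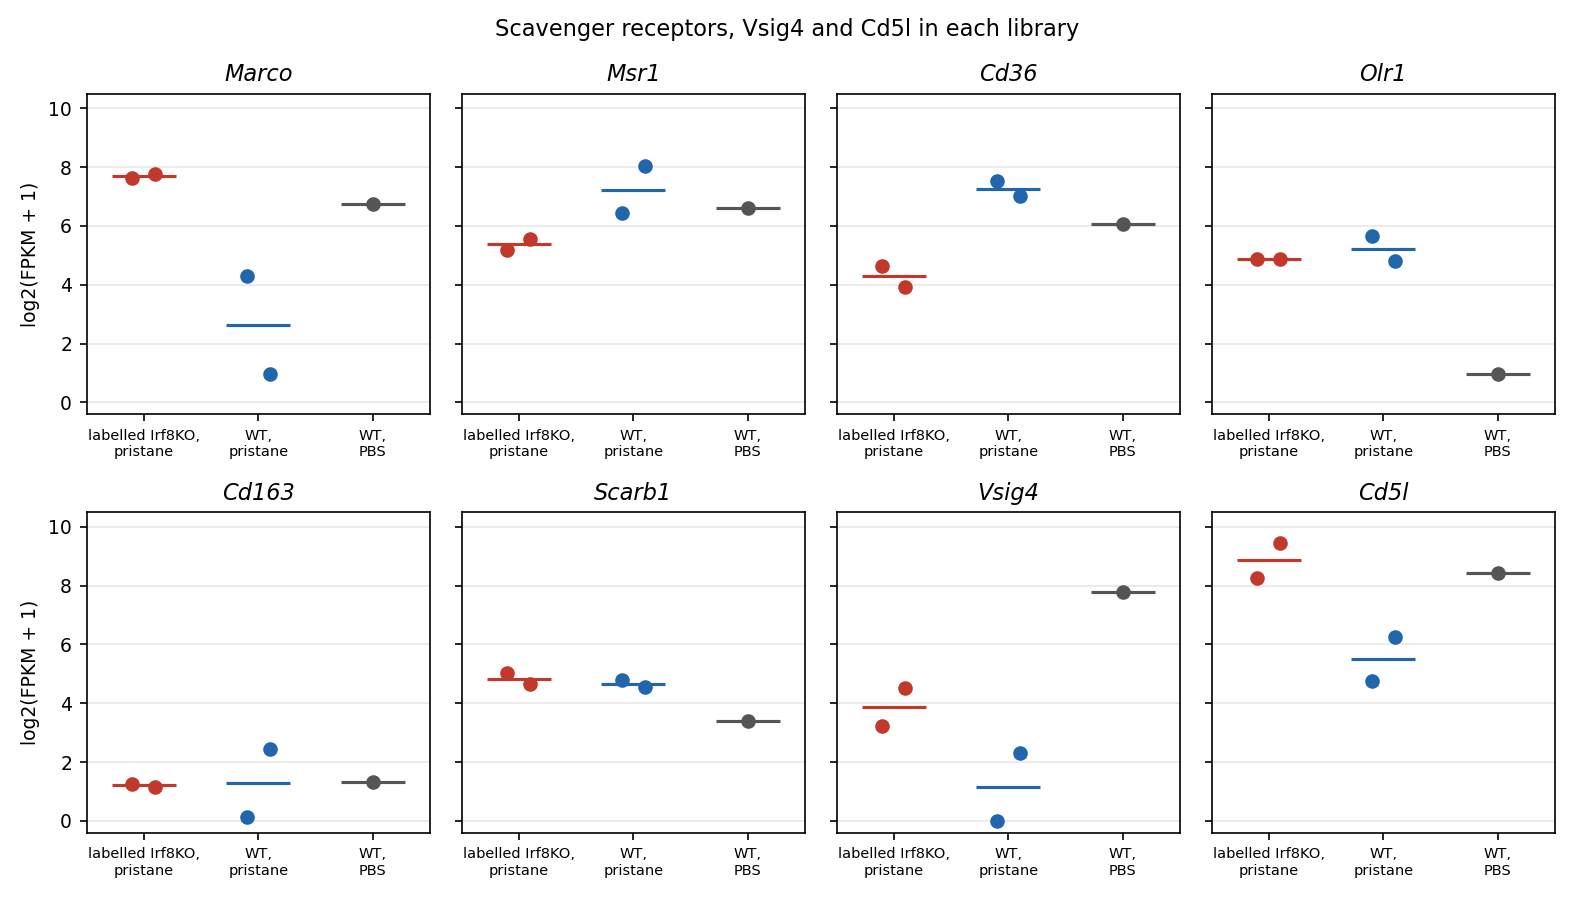
Levels of the 8 genes as log2(FPKM + 1) in each library (points) with the group mean (lines), for the libraries labelled Irf8KO, WT pristane and WT PBS. Olr1 is high in all 4 pristane libraries, Marco, Cd5l and Vsig4 lie lower in both WT pristane libraries than in the other groups, and Cd36 and Msr1 lie lowest in the libraries labelled Irf8KO.

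The class A receptors went opposite ways between the pristane groups, and neither passed the test there. Of all tested genes 26.1% were higher and 27.1% lower without overlap between these groups. Marco, which binds bacteria and inert particles, had 199 and 215 FPKM in libraries labelled Irf8KO, 18.7 and 0.934 FPKM in WT pristane and 107 FPKM in WT PBS. The libraries labelled Irf8KO agreed closely, whereas the WT pristane libraries differed 20.0-fold from each other. Only 0.198% of all tested genes had a gap as wide between those replicates on the log2(FPKM + 1) scale. In WT pristane replicate 2 the Marco level corresponded to about 5.19 fragments, against about 147 in replicate 1. Msr1, the first macrophage receptor described for modified low-density lipoprotein, had 35.1 and 46.3 FPKM in libraries labelled Irf8KO, 86.2 and 259 FPKM in WT pristane and 96.3 FPKM in WT PBS. Both libraries labelled Irf8KO were below all others, and the WT PBS library lay between the WT pristane replicates.

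Of the class B receptors, Cd36 did not overlap between any groups, and Scarb1 did not overlap only between PBS and pristane. Neither passed the test in any comparison. Between the pristane groups 26.1% of all tested genes were higher and 27.1% lower without overlap. Cd36, which takes up long-chain fatty acids and oxidized lipoprotein, had 24.1 and 14.3 FPKM in libraries labelled Irf8KO, 181 and 127 FPKM in WT pristane and 65.5 FPKM in WT PBS. Its 3 groups did not overlap, with WT PBS between the pristane groups. Scarb1, the receptor for high-density lipoprotein, had 31.3 and 24.2 FPKM in libraries labelled Irf8KO, 26.4 and 22.5 FPKM in WT pristane and 9.62 FPKM in WT PBS. The pristane groups overlapped and all 4 pristane libraries were above WT PBS.

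Olr1, the lectin-like receptor for oxidized lipoprotein also called LOX-1, had 28.7 and 28.3 FPKM in libraries labelled Irf8KO, 49.3 and 26.8 FPKM in WT pristane and 0.963 FPKM in WT PBS. All pristane libraries were far above WT PBS, where the level corresponded to about 7.95 fragments. Cd163, the receptor for hemoglobin bound to haptoglobin, was low throughout, with 1.38 and 1.25 FPKM in libraries labelled Irf8KO, 0.102 and 4.41 FPKM in WT pristane and 1.51 FPKM in WT PBS. The WT pristane replicates enclosed every other library, differing 43.3-fold from each other, at about 1.84 and 56.5 fragments.

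Vsig4, which binds the complement fragments C3b and iC3b, had 8.35 and 21.7 FPKM in libraries labelled Irf8KO, 0 and 3.94 FPKM in WT pristane and 221 FPKM in WT PBS. Every pristane library was far below WT PBS. Over all symbols, 121 were listed at 0 in at least 1 library and at 10 FPKM or more in another. Whether the 0 of Vsig4 in WT pristane replicate 1 is a failed estimate or a true absence was not tested. Cd5l, a secreted inhibitor of macrophage apoptosis, had 307 and 694 FPKM in libraries labelled Irf8KO, 25.8 and 74.5 FPKM in WT pristane and 341 FPKM in WT PBS. The WT pristane libraries were the lowest, and WT PBS lay within the range of the libraries labelled Irf8KO.

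FPKM is scaled by transcript length, so the order of the genes within a library can be read from it. In the libraries labelled Irf8KO the order began with Cd5l, Marco and Msr1, whose ranges did not overlap. Scarb1 and Olr1 followed with overlapping ranges, then Cd36 and Vsig4, which also overlapped, and Cd163 was last. In WT pristane Cd36 and Msr1 led with overlapping ranges, and Cd5l, Olr1 and Scarb1 came next. Cd5l overlapped both of those neighbours, and Marco, Vsig4 and Cd163 overlapped at the bottom. In WT PBS, with no replicate, Cd5l led and Vsig4, Marco and Msr1 followed. Among all 22815 symbols Cd5l ranked 287 and 119 in the libraries labelled Irf8KO, 2098 and 889 in WT pristane and 170 in WT PBS. The level of Marco over that of Cd36 in the same library, which no scaling between libraries can alter, was 8.25 and 15.1 in the libraries labelled Irf8KO, 0.103 and 0.00733 in WT pristane and 1.63 in WT PBS. Cd5l over Vsig4 was 36.8 and 32.0 in the libraries labelled Irf8KO, 18.9 in WT pristane replicate 2 and 1.55 in WT PBS, so these 2 genes of resident macrophages did not keep a common ratio.

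The libraries labelled Irf8KO were compared with WT pristane to see which levels after the oil differ with the genotype label. Without a PBS library of the mutant, a difference in the response to the oil cannot be told apart from a difference present before it. Marco, Cd5l and Vsig4 were higher and Cd36 and Msr1 lower in both libraries labelled Irf8KO than in either WT pristane library. That is 3 members higher and 2 lower without overlap, where 26.1% and 27.1% of all tested genes did the same, so the count as such does not set these genes apart. No member passed the test (limma, adjusted p under 0.05), in which 0% of tested genes were called higher and 0.027% lower. At an unadjusted p under 0.05 there were 5 members, against 2293 of all 11117 genes. The median log2 change was 0.05 over the members and −0.0018 over all tested genes.

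Cd36 came closest. Its log2 change on the log2(FPKM + 1) scale was −2.97 ± 0.34 (SE), with a 95% interval from −3.91 to −2.02 and an adjusted p of 0.0694 (limma). It passed when only genes with a mean of at least 5 FPKM were tested (adjusted p = 0.0179, limma) or with a robust prior (adjusted p = 0.0230). More of all genes passed there as well: 242 of 5894 with that filter and 264 of 11117 with the robust prior, against 3 of 11117 in the reported fit. Cd5l had a log2 change of 3.36 ± 0.69 (SE; adjusted p = 0.136, limma), and Marco had the largest, 5.07 ± 1.20 (SE; adjusted p = 0.154). The value of Marco was 6.75 without WT pristane replicate 1 and 3.40 without replicate 2. Vsig4 (2.71 ± 0.95 SE, adjusted p = 0.235) and Msr1 (−1.87 ± 0.59 SE, adjusted p = 0.208) were further from the threshold. For Vsig4 the value was 1.56 without WT pristane replicate 1, 3.86 without replicate 2 and 4.42 with a pseudocount of 0.1 FPKM, and for Cd5l it ran from 2.62 to 4.11 with 1 pristane library left out. For Msr1 the value was −2.65 without WT pristane replicate 1 and −1.08 without replicate 2.

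Olr1, Scarb1 and Cd163 overlapped between the pristane groups. The 95% interval of the log2 change was −1.29 to 0.60 for Olr1 and −0.42 to 0.75 for Scarb1. That of Cd163 ran from −2.38 to 2.23, and all 3 include 0. The change of Olr1 was 0.088 without WT pristane replicate 1 and −0.77 without replicate 2, and without Irf8KO pristane replicate 1 that of Scarb1 was −0.011.

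**Figure D2:**
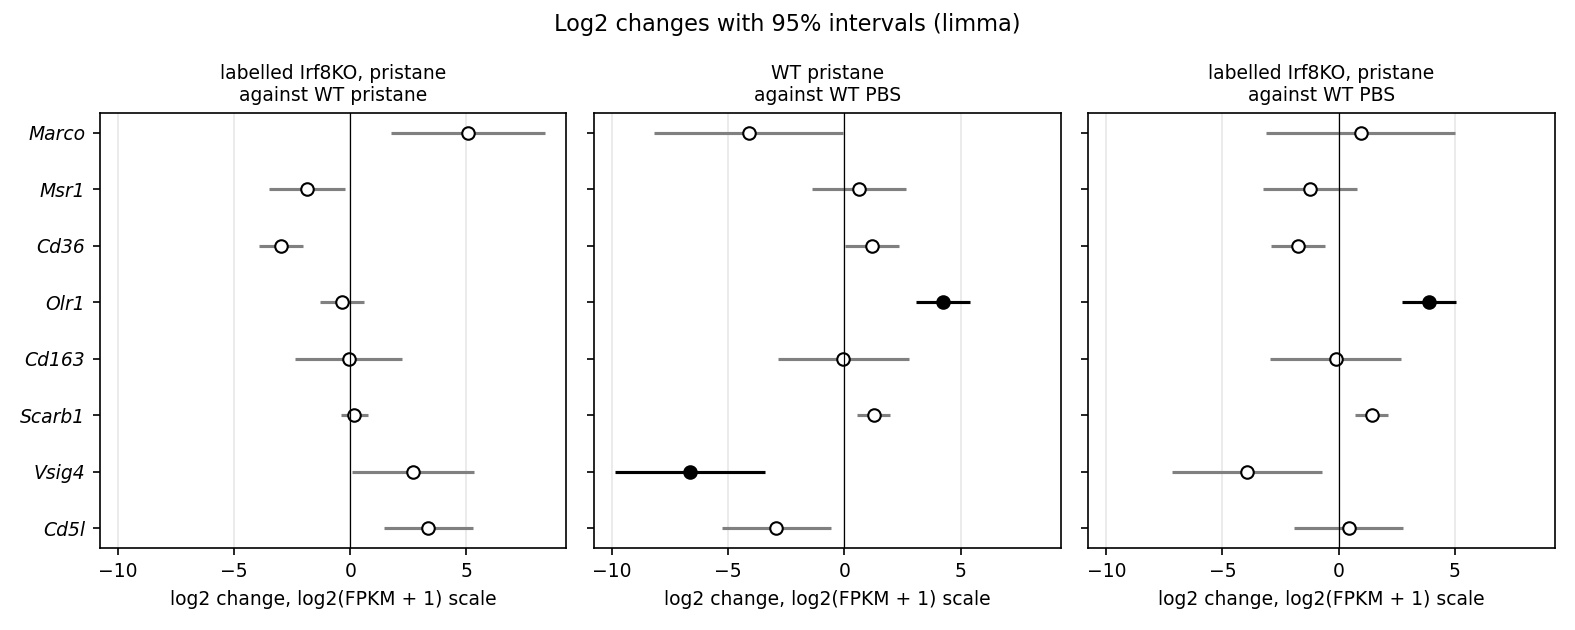
Log2 change of each gene (x axis, log2(FPKM + 1) scale) with its 95% interval from limma in the 3 comparisons, with filled points for an adjusted p under 0.05. Olr1 passed in both comparisons with WT PBS and Vsig4 in WT pristane against WT PBS, and between the pristane groups Cd36 had a narrow interval below 0 without passing.

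WT pristane was compared with WT PBS to follow the response to the oil in mice with intact Irf8. Olr1 rose and Vsig4 fell. They were 1 member higher, where 5.18% of tested genes were called higher, and 1 lower, where 5.46% were. At an unadjusted p under 0.05 there were 6 members, against 3753 of all tested genes, and the median log2 change was 0.29 over the members and −0.07 over all tested genes. Olr1 had a log2 change of 4.25 ± 0.42 (SE; adjusted p = 0.0267, limma), and Vsig4 one of −6.64 ± 1.16 (SE; adjusted p = 0.0471). Both calls were lost when any 1 of the 4 pristane libraries was left out, as were the calls of all other genes. Such fits have fewer residual degrees of freedom, and the loss is not particular to Olr1 and Vsig4. The log2 changes then stayed between 3.82 and 4.68 for Olr1 and between −7.79 and −5.49 for Vsig4. The Vsig4 call was also lost with a pseudocount of 0.1 FPKM (adjusted p = 0.120), and neither gene passed when every listed gene was tested (adjusted p = 0.0705 for Olr1 and 0.168 for Vsig4).

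The other members did not pass. Scarb1 had a log2 change of 1.26 ± 0.26 (SE; adjusted p = 0.0596, limma) and Cd36 of 1.20 ± 0.42 (SE; adjusted p = 0.139), with both WT pristane libraries above WT PBS for each. Marco (−4.13 ± 1.46 SE, adjusted p = 0.144) and Cd5l (−2.93 ± 0.84 SE, adjusted p = 0.102) had both WT pristane libraries below WT PBS. Without WT pristane replicate 1 these were −5.80 for Marco and −2.18 for Cd5l, and without replicate 2 they were −2.45 for Marco and −3.67 for Cd5l. Msr1 had 0.63 ± 0.72 (SE), a value of −0.16 without WT pristane replicate 2 and of 1.42 without replicate 1.

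The libraries labelled Irf8KO were also compared with WT PBS. This shares the WT PBS library with the comparison above, so the 2 are given side by side and are not independent. Olr1 rose again, by 3.91 ± 0.42 (SE; adjusted p = 0.0319, limma) on the log2 scale. That is 1 member higher, where 3.81% of tested genes were called, and 0 lower, where 4.72% were. At an unadjusted p under 0.05 there were 4 members, against 3747 of all tested genes, and the median log2 change was 0.16 over the members and −0.05 over all tested genes. The Olr1 call was lost when every listed gene was tested (adjusted p = 0.0837, limma). It was also lost when any 1 pristane library was left out, as were the calls of all other genes.

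Scarb1 had 1.42 ± 0.26 (SE; adjusted p = 0.0543, limma), close to its value in WT pristane. Cd36 lay on the other side of WT PBS here, with −1.76 ± 0.42 (SE; adjusted p = 0.0785). Scarb1 in both comparisons with WT PBS, and Cd36 here, passed when only genes with a mean of at least 5 FPKM were tested. That setting called 1176 of 5894 genes in WT pristane against WT PBS and 933 in the libraries labelled Irf8KO against WT PBS. In the reported fit Vsig4 had −3.93 ± 1.16 (SE; adjusted p = 0.108, limma). The intervals of Marco and Cd5l were wide: Marco had 0.95 ± 1.46 (SE), and Cd5l had 0.43 ± 0.84 (SE), or −0.12 after quantile normalization. Their 95% intervals, −3.12 to 5.02 and −1.90 to 2.77, do not show that the levels were alike.

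**Figure D3:**
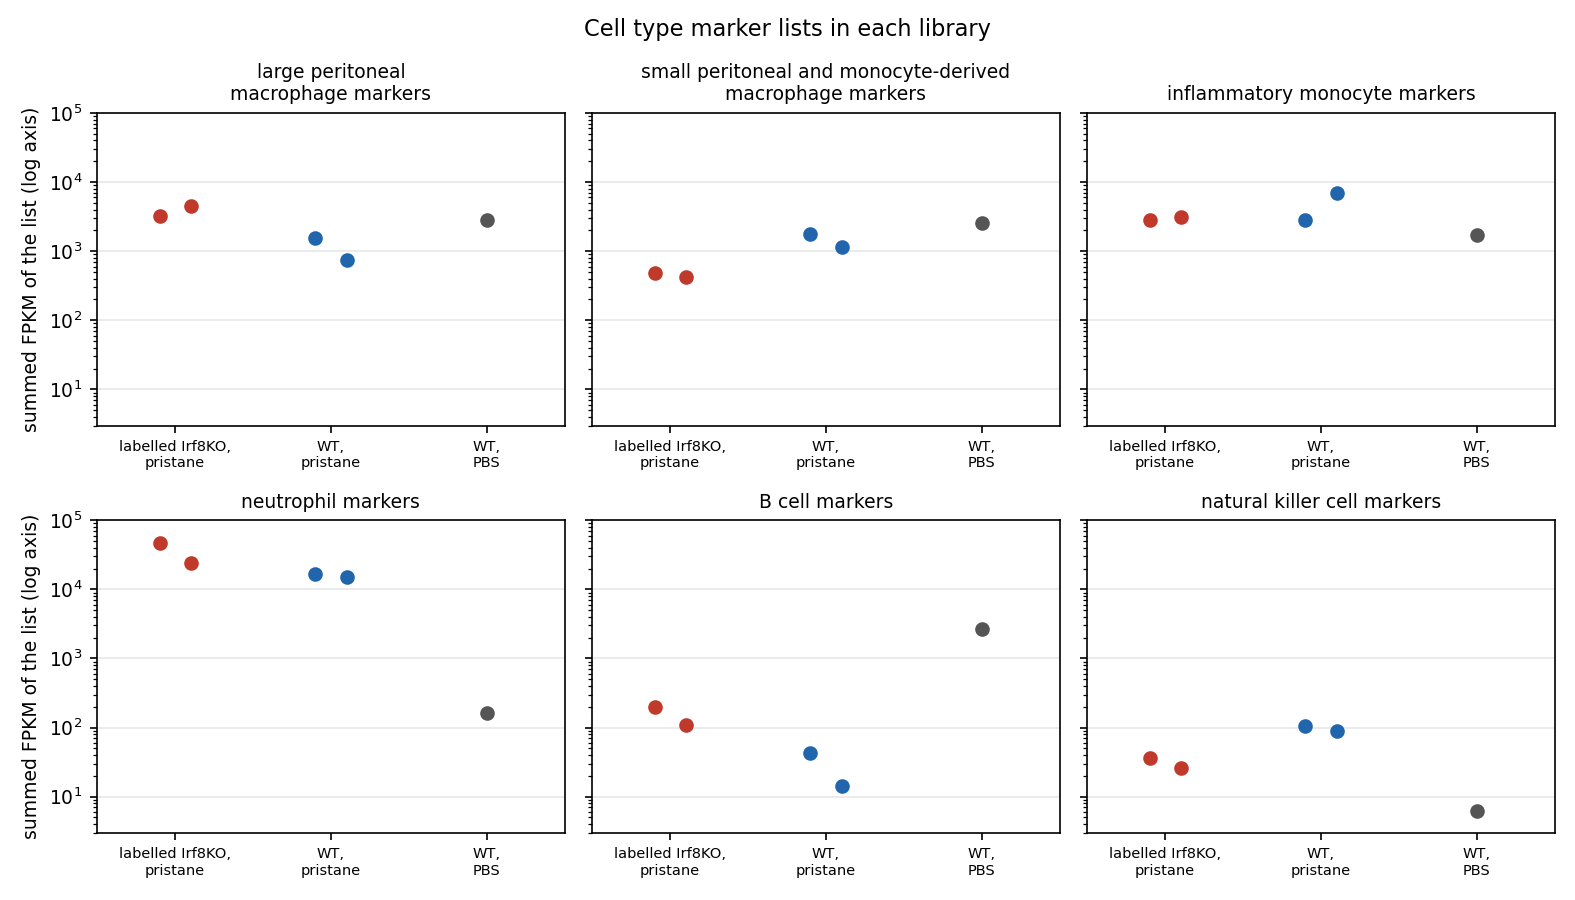
Summed FPKM (log axis) of marker lists of 6 cell types in each library, for the libraries labelled Irf8KO, WT pristane and WT PBS, where small peritoneal and monocyte-derived macrophage markers form 1 list. Large peritoneal macrophage markers sum to 3259 and 4451 FPKM in libraries labelled Irf8KO, above 1528 and 753 FPKM in WT pristane, and neutrophil markers are lowest in WT PBS.

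Markers of several cell types moved with these genes, and their part in the results was not tested. The 15 markers of large peritoneal macrophages, the main resident type, summed to 3259 and 4451 FPKM in libraries labelled Irf8KO, 1528 and 753 FPKM in WT pristane and 2823 FPKM in WT PBS. Cd9 made up much of the WT pristane sums, and without it they were 1934 and 2980 FPKM in libraries labelled Irf8KO, 163 and 229 FPKM in WT pristane and 2478 FPKM in WT PBS. Between the pristane groups 12 of the 15 were higher without overlap in the libraries labelled Irf8KO, beside 26.1% of all tested genes. There 1 marker, Timd4, was lower without overlap, beside 27.1% of all tested genes. The larger count is on the side of Marco, Cd5l and Vsig4. Timd4 had 0.0957 and 0.552 FPKM in libraries labelled Irf8KO, 0.676 and 0.838 FPKM in WT pristane and 26.9 FPKM in WT PBS. In WT pristane against WT PBS, the comparison in which Vsig4 fell, 9 of the 15 fell and none rose, beside 5.46% and 5.18% of all tested genes. In the libraries labelled Irf8KO against WT PBS, 1 of the 15 rose and 1, Timd4, fell. Of all tested genes 3.81% rose and 4.72% fell in that comparison. No marker of this list was listed at 0 in any library. The 10 markers of small peritoneal and monocyte-derived macrophages, among them the mannose receptor Mrc1, summed to 479 and 428 FPKM in libraries labelled Irf8KO, 1795 and 1142 FPKM in WT pristane and 2567 FPKM in WT PBS. H2-Ab1, an antigen-presentation gene that B cells also express, carried the order of these sums. Without it they were 255 and 308 FPKM in libraries labelled Irf8KO, 381 and 865 FPKM in WT pristane and 273 FPKM in WT PBS, so that WT PBS lay between the libraries labelled Irf8KO. Of the 10 markers, 7 were lower and 1 higher in the libraries labelled Irf8KO without overlap, beside 27.1% lower and 26.1% higher of all tested genes. The larger count is on the side of Cd36 and Msr1. Inflammatory monocyte markers summed to 2785 and 3113 FPKM in libraries labelled Irf8KO, 2860 and 7056 FPKM in WT pristane and 1712 FPKM in WT PBS. Single genes carried these sums. Without the matrix protein Fn1 they were 450 and 254 FPKM in libraries labelled Irf8KO, 1298 and 6130 FPKM in WT pristane and 844 FPKM in WT PBS, and Chil3 alone gave 4000 FPKM in WT pristane replicate 2. Of the 12 markers, 8 were lower and 1, Fn1, was higher in the libraries labelled Irf8KO without overlap, beside 27.1% lower and 26.1% higher of all tested genes. These single genes were chosen after their values were seen.

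Neutrophil markers, like Olr1, were higher in the pristane libraries than in WT PBS, and a link between them was not tested. The markers summed to 47195 and 24237 FPKM in libraries labelled Irf8KO, 16676 and 15004 FPKM in WT pristane and 163 FPKM in WT PBS. There Il1r2, Camp and Ltf were listed at 0. Without S100a8 the sums were 17754 and 7937 FPKM in libraries labelled Irf8KO, 6301 and 5127 FPKM in WT pristane and 70.9 FPKM in WT PBS. Of 12 tested markers, 7 rose in WT pristane against WT PBS, beside 5.18% of all tested genes. In the libraries labelled Irf8KO against WT PBS 9 rose, beside 3.81%. No marker of this list fell, beside 5.46% and 4.72% of all tested genes. The 10 B cell markers summed to 196 and 107 FPKM in libraries labelled Irf8KO, 42.8 and 14.4 FPKM in WT pristane and 2656 FPKM in WT PBS. T cell markers summed to 44.1 and 35.04 FPKM in libraries labelled Irf8KO, 130 and 89.0 FPKM in WT pristane and 130 FPKM in WT PBS, and natural killer cell markers to 35.9 and 25.9 FPKM in libraries labelled Irf8KO, 104 and 89.3 FPKM in WT pristane and 6.14 FPKM in WT PBS. All 8 tested T cell markers and all 7 tested natural killer cell markers were below both WT pristane libraries in each library labelled Irf8KO, as were 27.1% of all tested genes. All 10 mesothelial and fibroblast markers were listed at 0 in WT PBS.

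The genes most alike in profile differed from member to member. Likeness was the root mean square difference of log2(FPKM + 1), centred on each gene's mean, over the 5 libraries, and the 3 nearest genes of each member were taken. Marco was nearest to Icam2 (0.86), an adhesion molecule, and Prg4 (1.05), a lubricating proteoglycan, both on the list of large peritoneal macrophage markers, and to Saa3 (1.05), an acute phase protein. Saa3 had 40842 and 36484 FPKM in libraries labelled Irf8KO, 1337 and 628 FPKM in WT pristane and 4852 FPKM in WT PBS. The nearest gene to Marco was farther away than the nearest gene to any other member. Distances were not scaled to the spread of a gene, so they also depend on how widely each member varied. Vsig4 was nearest to Fcna (0.49), a ficolin and another of the large peritoneal macrophage markers, which had 31.2 and 54.5 FPKM in libraries labelled Irf8KO, 2.11 and 11.3 FPKM in WT pristane and 288 FPKM in WT PBS. C4b (0.77), a component of the classical complement pathway, and the B cell gene Bank1 (0.94) followed. Cd5l was nearest to Aspa (0.38), which encodes aspartoacylase, the growth factor receptor Fgfr1 (0.41) and the protease inhibitor Serpinb1a (0.42).

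Cd36 had other neighbours than Msr1. The nearest to Cd36 were Epsti1 (0.26), Sp100 (0.26) and the peptide transporter Tap1 (0.27), 3 genes known to be induced by interferon. Tap1 had 10.6 and 8.77 FPKM in libraries labelled Irf8KO, 70.7 and 80.3 FPKM in WT pristane and 36.4 FPKM in WT PBS. Msr1 was nearest to the interleukin-7 receptor Il7r (0.15), the phosphatase Dusp4 (0.23) and the lectin Clec10a (0.25). Il7r had 2.57 and 2.65 FPKM in libraries labelled Irf8KO, 6.63 and 23.0 FPKM in WT pristane and 9.21 FPKM in WT PBS. Olr1 was nearest to the lectin Clec4e (0.21), the ubiquitin ligase Rnf128 (0.22) and uridine phosphorylase Upp1 (0.26). Scarb1, whose log2(FPKM + 1) ran only from 3.41 to 5.01, had the closest match of the 8, Aldh3b1 (0.05). Next to Scarb1 after it were Mrpl27 (0.05) and Slc25a1 (0.06). Cd163 was nearest to Ndufa12 (0.26), Htr2b (0.29) and Socs1 (0.32). The points share libraries, and 5 libraries in 3 groups leave few ways for profiles to differ.

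**Figure D4:**
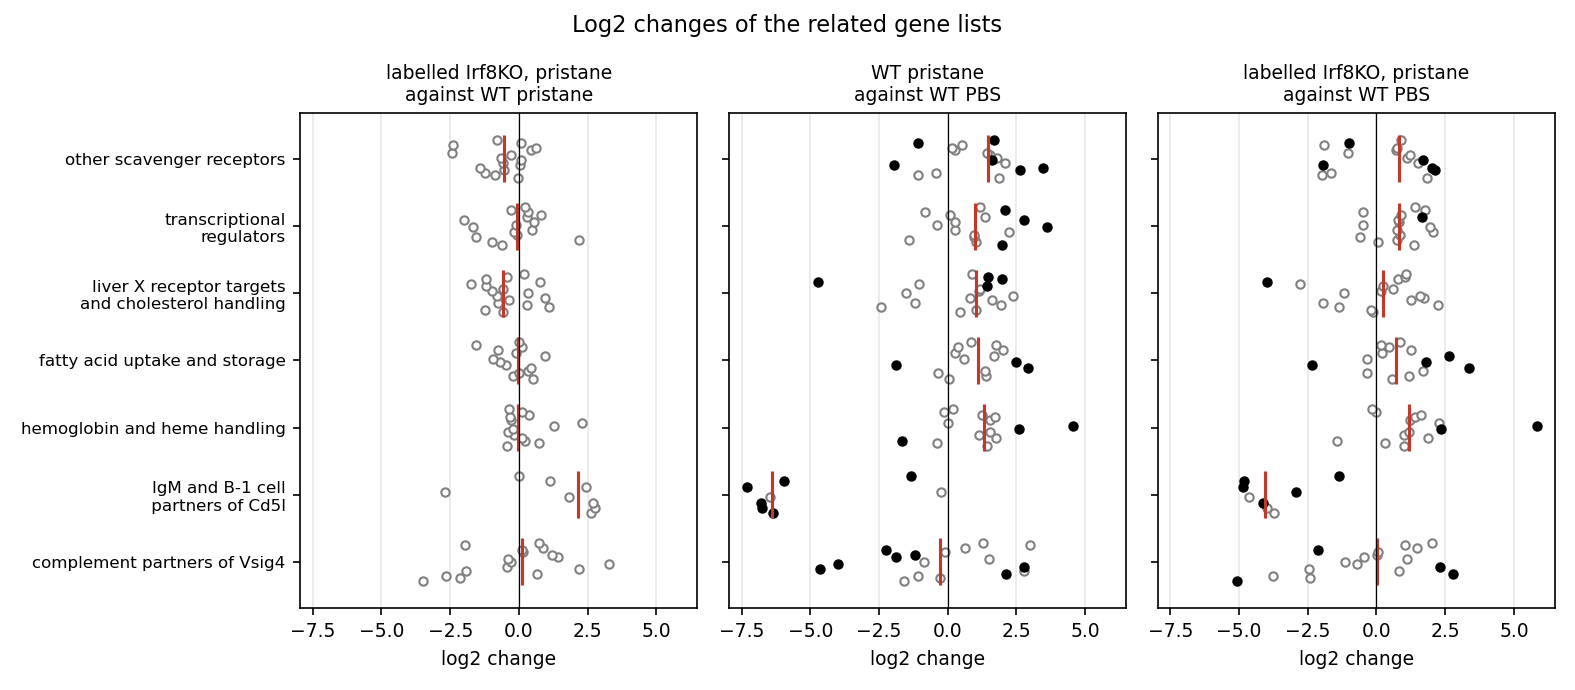
Log2 change (x axis, log2(FPKM + 1) scale) of each tested gene of the 7 related lists (rows) in the 3 comparisons, with filled points for an adjusted p under 0.05 (limma) and a red line at the list's median. No listed gene passed between the pristane groups, and genes of IgM and B-1 cells lie far to the left against WT PBS.

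Other scavenger receptors were read beside the members, 16 of 24 of them tested. Every call on these related lists was lost when any 1 of the 4 pristane libraries was left out, as was that of every other gene tested. Without a filter the calls on the lists numbered 8 in place of 33 in WT pristane against WT PBS. In the libraries labelled Irf8KO against WT PBS they numbered 7 in place of 22. None passed between the pristane groups, where the list's median log2 change was −0.56, against −0.0018 for all tested genes. In WT pristane against WT PBS 4 rose and 2 fell, with a median of 1.47 against −0.07 for all tested genes. Of all tested genes 5.18% rose and 5.46% fell there. In the libraries labelled Irf8KO against WT PBS 3 rose and 2 fell, with a median of 0.83. That comparison called 3.81% of all tested genes higher and 4.72% lower. Clec7a, the beta-glucan receptor Dectin-1, had 115 and 73.2 FPKM in libraries labelled Irf8KO and 251 and 249 FPKM in WT pristane. In WT PBS it had 21.7 FPKM. Against WT PBS it rose on the log2 scale by 2.04 in the libraries labelled Irf8KO (adjusted p = 0.0462, limma). In WT pristane it rose by 3.47 (adjusted p = 0.0267, limma). Cd68, a lysosomal glycoprotein of macrophages, had 380 and 404 FPKM in libraries labelled Irf8KO, 448 and 718 FPKM in WT pristane and 89.9 FPKM in WT PBS, and rose by 2.11 in the libraries labelled Irf8KO and by 2.64 in WT pristane. Stab1, a receptor for acetylated lipoprotein, rose by 1.69 in WT pristane, and Scarf2, which never passed 1.18 FPKM, fell. The lipopolysaccharide co-receptor Cd14, the highest of the list, had 1721 and 1256 FPKM in libraries labelled Irf8KO, 2160 and 1037 FPKM in WT pristane and 409 FPKM in WT PBS, and did not pass.

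Some transcription factors known to act on these genes in macrophages rose after pristane. Of 16 tested, 4 rose and 0 fell in WT pristane against WT PBS, where 5.18% and 5.46% of all tested genes did (median log2 change 1.00). In the libraries labelled Irf8KO against WT PBS 1 rose and 0 fell, near the 3.81% and 4.72% of all tested genes (median 0.84), and none passed between the pristane groups. Pparg, the lipid-sensing receptor that drives Cd36, had 0.926 and 0.530 FPKM in libraries labelled Irf8KO, 5.86 and 5.88 FPKM in WT pristane and 0 FPKM in WT PBS. Its pristane groups did not overlap, with an adjusted p of 0.0612 (limma), and it was among the genes that passed in WT pristane against WT PBS, with no fold given against a gene listed at 0. Nr1h3, the liver X receptor that drives Cd5l, had 7.20 and 6.74 FPKM in libraries labelled Irf8KO, 35.9 and 16.6 FPKM in WT pristane and 1.06 FPKM in WT PBS. It rose in WT pristane by 3.63 ± 0.51 (SE; adjusted p = 0.0351, limma), where Cd5l had −2.93 and did not pass. Spi1, which encodes PU.1, rose in WT pristane by 2.07 and Bhlhe40 by 1.99, and the retinoic acid receptor Rara rose in the libraries labelled Irf8KO against WT PBS by 1.66.

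Genes of cholesterol and fatty acid handling were mixed. Of 17 liver X receptor targets and cholesterol genes, 3 rose and 1 fell in WT pristane against WT PBS (median 1.03), beside 5.18% and 5.46% of all tested genes. In the libraries labelled Irf8KO against WT PBS 0 rose and 1 fell (median 0.22), beside 3.81% and 4.72%. Scd1, a fatty acid desaturase, had 3.95 and 2.94 FPKM in libraries labelled Irf8KO, 2.53 and 0.958 FPKM in WT pristane and 68.3 FPKM in WT PBS, and fell in both comparisons with WT PBS. Soat1, which esterifies cholesterol, rose in WT pristane by 1.47, the cholesterol carrier Npc2 by 1.44 and Scd2 by 1.96. Apoe, which carries lipid out of macrophages and was the highest of the list, had 3076 and 917 FPKM in libraries labelled Irf8KO, 3125 and 2566 FPKM in WT pristane and 6515 FPKM in WT PBS, and did not pass, nor did Apoc2. Of 14 genes of fatty acid uptake and storage, 2 rose and 1 fell in WT pristane against WT PBS, beside 5.18% and 5.46% of all tested genes, and 3 rose and 1 fell in the libraries labelled Irf8KO against WT PBS, beside 3.81% and 4.72%. Dgat2, which makes triglyceride, had 41.1 and 29.0 FPKM in libraries labelled Irf8KO, 24.8 and 25.7 FPKM in WT pristane and 2.44 FPKM in WT PBS, and rose in both. The lipid carriers Fabp5 and Fabp4 parted: against WT PBS, Fabp5 rose by 1.79 in the libraries labelled Irf8KO and 2.49 in WT pristane, and Fabp4 fell by 2.36 in the libraries labelled Irf8KO and fell by 1.89 in WT pristane. Hilpda, a lipid droplet protein induced by hypoxia, rose by 2.64 in the libraries labelled Irf8KO, and Plin2, a coat protein of lipid droplets, did not pass.

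In heme handling, the pathway of Cd163, Hmox1 and Hp rose in both comparisons with WT PBS. Hmox1, the enzyme that breaks down heme, had 121.5 and 121.2 FPKM in libraries labelled Irf8KO, 129 and 157 FPKM in WT pristane and 22.9 FPKM in WT PBS. It rose by 2.36 in the libraries labelled Irf8KO (adjusted p = 0.0297, limma) and by 2.59 in WT pristane (adjusted p = 0.0247). Hp, which encodes haptoglobin, the ligand carrier of Cd163 and also a neutrophil granule protein, had 2887 and 1785 FPKM in libraries labelled Irf8KO, 1278 and 687 FPKM in WT pristane and 39.0 FPKM in WT PBS, and rose in both comparisons. Of the 14 tested genes, 2 rose and 1 fell in WT pristane against WT PBS, beside 5.18% and 5.46% of all tested genes, and 2 rose and 0 fell in the libraries labelled Irf8KO against WT PBS, beside 3.81% and 4.72%. Cp, the copper enzyme ceruloplasmin, was the gene that fell. The ferritin genes Fth1 and Ftl1, which store iron, were the highest of the list and did not pass.

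The partners of Cd5l in plasma and of Vsig4 in the complement system were read last. Of 8 tested genes of IgM and B-1 cells, 6 fell in WT pristane against WT PBS and 5 in the libraries labelled Irf8KO against WT PBS, beside 5.46% and 4.72% of all tested genes, and none rose. Mzb1, a chaperone of antibody-making cells, had 8.04 and 8.79 FPKM in libraries labelled Irf8KO, 3.28 and 3.25 FPKM in WT pristane and 261 FPKM in WT PBS. Igj, the joining chain of IgM, had 0.199 and 0.575 FPKM in libraries labelled Irf8KO, 7.86 and 8.03 FPKM in WT pristane and 9.48 FPKM in WT PBS, and fell in the libraries labelled Irf8KO against WT PBS by 2.93 (adjusted p = 0.0318, limma). Of the B cell genes on the list, Ms4a1 and Cd79b fell in both comparisons, and Cd79a, the highest of the list, fell in WT pristane by 6.74.

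Of 17 complement genes, 2 rose and 5 fell in WT pristane against WT PBS, beside 5.18% and 5.46% of all tested genes, and 2 rose and 2 fell in the libraries labelled Irf8KO against WT PBS, beside 3.81% and 4.72%. C1qa, a chain of the first complement component, had 19.8 and 41.8 FPKM in libraries labelled Irf8KO, 383 and 287 FPKM in WT pristane and 1012 FPKM in WT PBS, and fell by 5.08 in the libraries labelled Irf8KO against WT PBS (adjusted p = 0.0318, limma). C3, the source of the fragments that Vsig4 binds, had 100 and 99.0 FPKM in libraries labelled Irf8KO, 83.0 and 47.6 FPKM in WT pristane and 13.6 FPKM in WT PBS, and rose in both comparisons. The anaphylatoxin receptor C5ar1 rose in both as well, and Cr2, a complement receptor of B cells, fell in both. Itgb2, a subunit of complement receptor integrins, did not pass. Cfp, which encodes properdin and was the highest of the list, had 898 and 937 FPKM in libraries labelled Irf8KO, 407 and 384 FPKM in WT pristane and 908 FPKM in WT PBS, and fell in WT pristane by 1.20.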

How the data were processed

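The table holds FPKM deposited by the authors for 5 libraries. It is named a count table, but its values are not whole numbers, and low values step with transcript length. Per the submitters' processing notes, BWA, TopHat2 2.0.10, Cufflinks 2.2.1 and Cuffnorm were used, with no role named for each; the sources used here give neither genome build nor annotation. The 27 symbols turned into dates by a spreadsheet were tested but not named.

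A gene entered the test if any library held 1 FPKM or more (11117 genes). All 5 libraries went into 1 limma-trend fit of 3 group means to log2(FPKM + 1), made with limma 3.58.1 under R 4.3.3. Residual degrees of freedom were 2 and prior degrees of freedom 1.99. The Benjamini-Hochberg adjustment ran over all 11117 of them. A fold change on this scale understates the change of low genes. The fit was tested on simulated data.

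Depth was estimated from single-transcript genes of at least 1000 bases with values under 0.3 FPKM, and 66.7% to 81.5% of the products of value and length lay within 0.15 of 1 or 2 fragments. Fragments of a gene use its longest protein-coding GENCODE M21 transcript. Promoters are from RefSeq (GRCm38.p6), matched by symbol for 6 of 8 members.

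Members, lists, tests and the naming rule (all members, Irf8, up to 4 genes past the threshold and the 2 highest per related list, 3 nearest profiles per member) were chosen with earlier results of these data known. C3, Eif2s3y and Xist were added after their values were seen. Of the related-list genes, Ighm and Flvcr1 were not found by symbol. A gene of the complement list that the rule names is not reported here. Marker sums were also taken with 1 gene left out, chosen after its share of the sum was seen.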

Additional observations from a re-analysis of the deposited data

How the results depend on the processing

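Among 309 log2 changes of the 8 genes under other settings, 269 kept their direction and their side of the threshold. Of the rest, 23 no longer passed, 7 newly passed and 10 changed sign. Only the calls of Olr1 in both comparisons with WT PBS and of Vsig4 in WT pristane against WT PBS could be lost. Most of the 269 were therefore changes that passed neither in the reported fit nor under the other setting. In the order Irf8KO against WT pristane, WT pristane against WT PBS and Irf8KO pristane against WT PBS, the reported fit called 0, 2 and 1 of the 8 genes, 3, 1183 and 949 of all genes, and 0, 33 and 22 of the related-list genes. A pseudocount of 0.1 FPKM called 0, 1 and 1 of the 8, 0, 846 and 641 of all genes, and 0, 22 and 12 of the related-list genes. Without a filter these were 0, 0 and 0 of the 8, 4, 934 and 920 of all genes, and 0, 8 and 7 of the related-list genes. Testing only the 5894 genes with a mean of at least 5 FPKM gave 1 (Cd36), 3 (Olr1, Scarb1, Vsig4) and 3 (Cd36, Olr1, Scarb1) of the 8. It called 242, 1176 and 933 of those 5894 genes, and 6, 39 and 29 of the related-list genes. No trend gave 0, 1 and 1 of the 8, 40, 1032 and 623 of all genes, and 0, 26 and 14 of the related-list genes. A robust prior gave 1 (Cd36), 3 and 2 of the 8, 264, 1561 and 1272 of all genes, and 5, 43 and 31 of the related-list genes. Median-of-ratios scaling and quantile normalization kept 0, 2 and 1 of the 8, and under both 5 of the 8 had groups without overlap. With the libraries of the groups compared only, both comparisons with WT PBS called 0 genes, and the comparison between the pristane groups called 3. The fit then has fewer libraries, and the cause was not tested for this or the other settings. Same-numbered pristane libraries shared only a number (correlation of their deviations 0.04 over 11117 genes), and the fit with the replicate block called 0 genes in every comparison. Leaving out each of the 4 pristane libraries in turn also called 0 genes in every comparison, each time with fewer residual degrees of freedom, and the WT PBS library could not be left out. Sign changes were confined to changes that did not pass. Quantile normalization gave 0.17 and 0.14 for Cd163 in WT pristane and Irf8KO pristane against WT PBS, and −0.12 for Cd5l in Irf8KO pristane against WT PBS. A pseudocount of 0.1 FPKM gave 0.57 for Cd163 between the pristane groups. With 1 library left out, the changes between the pristane groups ran from −0.77 to 0.088 for Olr1, from −1.22 to 1.07 for Cd163 and from −0.011 to 0.35 for Scarb1. Against WT PBS they ran from −0.16 to 1.42 for Msr1 and from −1.19 to 1.11 for Cd163 in WT pristane, and from −0.15 to 1.02 for Cd5l in Irf8KO pristane. The depth behind Cd163 was about 1.84 to 56.5 fragments per library.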
